A study of Oryza longistaminata with 9 samples.

Results

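The genes described here are those whose annotation in the deposited table names the HORMA domain, meiosis, a meiotic protein, SPO11 or DMC1. The rule found 4 of 46327 gene models. They were the meiotic recombination protein SPO11-1 (BGIOSGA013572), the homolog of Meiotic nuclear division protein 1 (MND1, BGIOSGA030086), a gene with a HORMA domain (BGIOSGA014841), and a gene with a domain named for chromosome segregation during meiosis (BGIOSGA031065). The description column held 1 hit for HORMA, 2 for meiotic, 1 for meiosis, 1 for SPO11 and 0 for DMC1. Their RNA was measured in anthers of Oryza longistaminata, a perennial wild rice. The 3 Ls-6mm libraries came from anthers of 6-mm spikelets, in which microspore mother cells touch the tapetum, and the 3 Ls-4mm libraries came from anthers of 4-mm spikelets, in which the primary sporogenous cells are being formed. The labels give no treatment or genotype beyond the species. By the study's results the tissue was isolated anthers, so germ cells were read together with the anther wall. The study's RNA methods name pollen as the source instead, and anthers are assumed here. By the study's own sections the 6-mm spikelet comes just before meiosis begins. Its methods, however, describe the mother cells of this stage as both forming and undergoing meiosis. Libraries of the third stage, from 8.5-mm spikelets, were not analysed here.

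Meiosis reduces the chromosome number of the microspore mother cells and shuffles the parental chromosomes. SPO11 proteins cut both DNA strands to start recombination, recombinases then pair the broken end with the homologous chromosome, and MND1 works with its partner HOP2 to help that pairing step. Proteins with a HORMA domain include the axis proteins on which meiotic chromosomes are organised, but also the spindle checkpoint protein MAD2 and the repair protein REV7, and the table does not say to which of these a HORMA gene belongs.

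The members did not move together between the stages. The HORMA domain gene was 5.88-fold lower in Ls-6mm than in Ls-4mm anthers. SPO11-1 and the MND1 homolog were detected in all 6 libraries and passed no threshold in either direction. The domain gene BGIOSGA031065 had no read in any library. Of the 3 members that passed the filter on low counts, 0 were called higher and 1 was called lower in Ls-6mm (edgeR adjusted p under 0.05). Over all 23691 genes tested, 42.0% were called higher and 38.6% lower, so that a change at this threshold was the usual outcome in this comparison (80.6% of genes) and absence of a call was the rarer one.

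Total counts ran from 17076800 to 21232663 reads in Ls-6mm and from 14509449 to 16684146 reads in Ls-4mm libraries. Log2 FPKM of the 24241 genes above 0 in every library correlated across genes at 0.985 to 0.986 within Ls-6mm and at 0.983 to 0.984 within Ls-4mm, against 0.827 to 0.834 between the stages. No library stood apart from its stage. Levels below are given as CPM (counts scaled to library size after TMM normalization) when a gene is compared with itself, and as the authors' FPKM (the same kind of value, further divided by gene length) when 2 genes are compared. The sources do not tell if replicate libraries were made from different plants, and every p-value therefore measures only the spread between these libraries.

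SPO11-1, the enzyme of the initiating double-strand break, was the least abundant of the detected members. It lies on chromosome 3 (35215500 to 35219209, plus strand) with a coding length of 1146 bases, or 382 codons. It was read 112, 126 and 73 times in the Ls-6mm libraries and 98, 124 and 115 times in the Ls-4mm libraries. Scaled to depth, its level was 6.69, 6.21 and 4.48 CPM in Ls-6mm, against 6.38, 7.16 and 6.80 CPM in Ls-4mm. The groups overlapped, and the third Ls-6mm library was the lowest of the 6. The means were 5.79 ± 1.16 CPM in Ls-6mm and 6.78 ± 0.391 CPM in Ls-4mm (SD, n = 3 each). The log2 fold change was −0.22 (SE 0.15, 95% confidence interval −0.55 to 0.10, edgeR adjusted p = 0.192), so a decrease of up to 0.55 on the log2 scale is within the interval. Among the tested genes, 16.8% had a change of this size or smaller. With library size as the only scaling the value was −0.36 and passed the threshold (edgeR adjusted p = 0.0386). Over the 15 alternatives its adjusted p ran from 0.0386 to 0.639, and it was called in 1 of them. Under that scaling the median of all tested genes also moved, to −0.10 from 0.04.

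The MND1 homolog differed less between the stages than any other detected member. It lies on chromosome 9 (5437842 to 5442931, minus strand) and spans 5090 bases for a coding length of 624 bases, 8.16 times as much, so that most of its span is not coding sequence. Its reads numbered 268, 344 and 260 in Ls-6mm and 259, 307 and 235 in Ls-4mm. Its level was 16.0, 16.9 and 16.0 CPM in Ls-6mm, against 16.9, 17.7 and 13.9 CPM in Ls-4mm. The Ls-6mm values all lay inside the range of the Ls-4mm values. The means were 16.3 ± 0.554 CPM in Ls-6mm and 16.2 ± 2.01 CPM in Ls-4mm (SD, n = 3 each). The log2 fold change was 0.02 (SE 0.098, edgeR adjusted p = 0.881), and its 95% confidence interval covered folds of 0.876 to 1.17. The value ran from −0.12 to 0.09 over 15 alternative settings, changing sign with the setting, and was called in 0 of them.

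The HORMA domain gene carried the change among the members. It lies on chromosome 4 (22728668 to 22729898, minus strand), spans 1231 bases and has a coding length of 624 bases, or 208 codons. It was read 171, 194 and 143 times in Ls-6mm and 790, 1064 and 935 times in Ls-4mm libraries. Its level was 10.2, 9.56 and 8.78 CPM in Ls-6mm, against 51.4, 61.4 and 55.3 CPM in Ls-4mm. The highest Ls-6mm library was far below the lowest Ls-4mm library, a separation of the groups that 81.7% of tested genes also had in one or the other direction. The log2 fold change was −2.56 (SE 0.085, 95% confidence interval −2.74 to −2.38, edgeR adjusted p = 2.66e-14). Of all tested genes, 445 (1.88%) were lower by at least as much. The fold change lay between −2.69 and −2.49 over the 15 alternatives and was called in 15 of them. In anthers read whole, fewer cells of a type and less RNA per cell cannot be told apart, and this holds for every gene below. The gene had been singled out from earlier results of these libraries, so its change is not independent evidence of a direction for HORMA genes.

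Genes taken as markers of other cells moved between the same libraries, in which 42.0% of all tested genes were called higher and 38.6% lower. A list of replication genes, which are read in dividing cells, had 8 members, and all 7 that were tested were lower in Ls-6mm (median log2 fold change −2.74, against 0.04 for all tested genes). Their summed level was 177.0 to 181.7 CPM in Ls-6mm and 1153 to 1167 CPM in Ls-4mm, and 0 of the 8 were at 0 in all libraries. A list of tapetum markers (the tapetum is the wall layer that feeds the pollen) took whole families by their descriptions. These were strictosidine synthases, fatty acyl-CoA reductases, and chalcone and stilbene synthases, so being listed does not show that a gene is read in the tapetum. The list had 53 members, of which 15 were at 0 in all libraries and 21 were tested. Of those tested, 18 were higher and 2 lower in Ls-6mm. The summed level of the list was 3977 to 4105 CPM in Ls-6mm and 652.6 to 767.3 CPM in Ls-4mm, with 19 members at 0 in all Ls-6mm libraries and 31 at 0 in all Ls-4mm libraries. The median log2 fold change of the tapetum list was 7.39, and 4.31 with its 9 tested genes that were at 0 in one stage set to the bound that 3 reads over the stage's libraries allow. Those 9, and genes near 0 in Ls-4mm such as BGIOSGA033154 (0.0843 CPM), passed the filter on low counts only through Ls-6mm. Their direction was thereby fixed, so the number of tapetum genes called higher is no test of a shift. A list for the photosynthetic cells of the anther wall held the genes described as chlorophyll a-b binding proteins. It had 23 members, of which 22 were tested, 18 were higher and 3 lower in Ls-6mm, with a median of 0.95. Its summed level was 3890 to 4023 CPM in Ls-6mm and 1706 to 1989 CPM in Ls-4mm, with 1 member at 0 in Ls-6mm and 0 in Ls-4mm. The part of these shifts in the members' values was not tested.

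BGIOSGA031065 was listed at 0 reads in all 6 libraries. It is a short model on chromosome 9 (18488263 to 18488793, plus strand) with a coding length of 195 bases, or 65 codons. At this depth 0 reads allow up to 0.0563 CPM in Ls-6mm and 0.0605 CPM in Ls-4mm, taking 3 reads over the 3 libraries of a stage as the limit for counting error. The gene was not tested, and whether it is transcribed below that limit cannot be seen here.

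**Figure D1:**
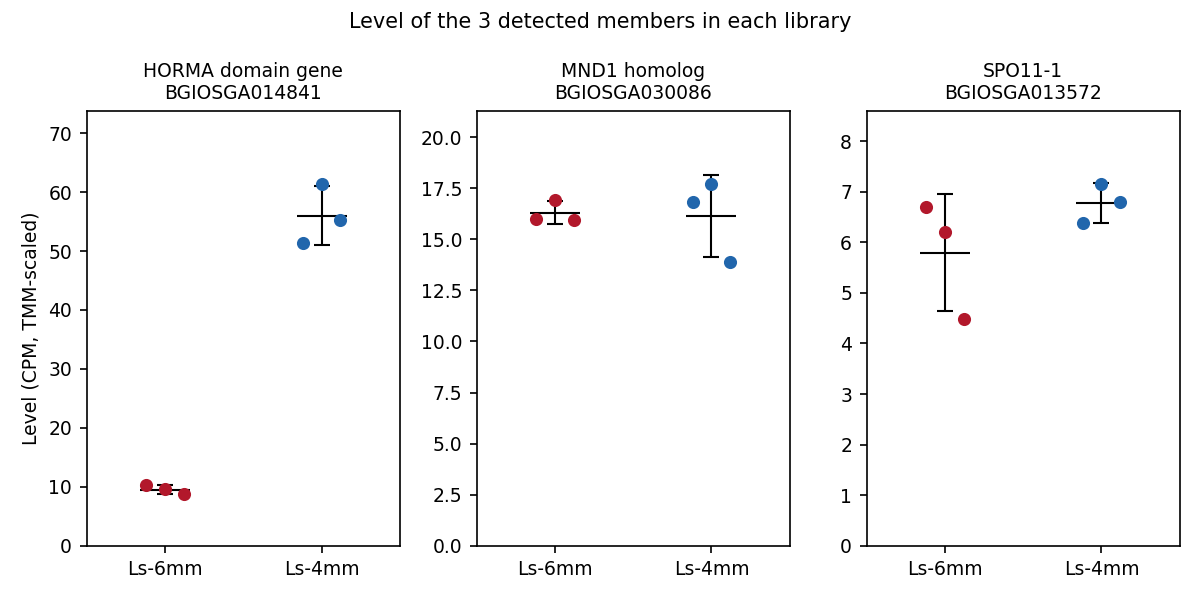
Level of the 3 detected members in each library, in CPM after TMM scaling on linear axes that start at 0 and differ between panels. Points are libraries (Ls-6mm red, Ls-4mm blue) and bars are the mean ± SD of 3 libraries. The HORMA domain gene sits at 8.78 to 10.2 CPM in Ls-6mm and at 51.4 to 61.4 CPM in Ls-4mm, while the stages overlap for the MND1 homolog and for SPO11-1.

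Added over the 4 members, the level was 31.6 ± 2.07 CPM in Ls-6mm and 79.0 ± 6.39 CPM in Ls-4mm (SD, n = 3 each). The HORMA domain gene made up 30.1% of this sum in Ls-6mm and 71% in Ls-4mm. The difference in the sum was thus almost wholly that of 1 gene.

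Per length, the order of the members differed between the stages. In Ls-6mm the MND1 homolog came first, at 24.6, 26.0 and 24.5 FPKM, followed by the HORMA domain gene at 15.7, 14.7 and 13.5 FPKM and by SPO11-1 at 5.59, 5.19 and 3.75 FPKM. In Ls-4mm the HORMA domain gene came first, at 81.9, 96.3 and 87.1 FPKM, followed by the MND1 homolog at 26.8, 27.8 and 21.9 FPKM and by SPO11-1 at 5.53, 6.11 and 5.83 FPKM. Neighbours in these orders did not overlap in either stage. Among all tested genes ranked by mean level per length, the HORMA domain gene stood at percentile 53.6 in Ls-6mm and 91.8 in Ls-4mm. The MND1 homolog stood at percentile 66.8 in Ls-6mm and 68.4 in Ls-4mm. SPO11-1 stood at percentile 30.2 in Ls-6mm and 37.2 in Ls-4mm.

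Ratios of FPKM taken within a library do not depend on how libraries are scaled. The ratio of the HORMA domain gene to the MND1 homolog was 0.638, 0.564 and 0.550 in Ls-6mm, against 3.05, 3.47 and 3.98 in Ls-4mm. Its ratio to SPO11-1 was 2.80, 2.83 and 3.60 in Ls-6mm, against 14.8, 15.8 and 14.9 in Ls-4mm. Both ratios separated the stages, and both reached p = 0.1 in a two-sided exact permutation test, the smallest that 3 libraries against 3 allow (0.15 after Benjamini-Hochberg adjustment over the 3 pairs of members). The HORMA domain gene had been singled out from earlier results of these libraries, so both ratios restate its change and are not independent evidence of it. The ratio of SPO11-1 to the MND1 homolog was 0.228, 0.199 and 0.153 in Ls-6mm, against 0.206, 0.220 and 0.267 in Ls-4mm. These values overlapped (exact p = 0.4, adjusted 0.4). With 3 libraries against 3 none of the 3 ratios could reach 0.05, so the p-values do not show that any ratio was equal in the stages.

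The description column named only 1 HORMA gene, but the table's own column of protein families placed 5 further genes in the HORMA family. These 5 have no description, fell outside the rule, and were looked up after their values were seen. BGIOSGA037755 (chromosome 12) and BGIOSGA012065 (chromosome 3) were at 0 reads in all libraries. Of the 3 that were tested, 1 was higher and 2 were lower in Ls-6mm, where 42.0% of all tested genes were called higher and 38.6% lower.

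BGIOSGA031053 went the opposite way from BGIOSGA014841. It lies on chromosome 9 (18309366 to 18317539, plus strand) with a coding length of 1749 bases. Its level was 81.3, 80.9 and 82.8 FPKM in Ls-6mm, against 15.1, 13.3 and 12.1 FPKM in Ls-4mm. Its log2 fold change was 2.64 (SE 0.058, edgeR adjusted p = 1.15e-16), close in size to that of BGIOSGA014841 with the other sign. The ratio of BGIOSGA031053 to BGIOSGA014841 was 5.18, 5.51 and 6.14 in Ls-6mm, against 0.185, 0.138 and 0.139 in Ls-4mm. Between them these genes gave the highest HORMA level in each stage, a different gene in each.

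The other detected HORMA genes moved less. BGIOSGA002322 (chromosome 1, coding length 2397 bases) was at 23.9, 22.9 and 22.4 FPKM in Ls-6mm, against 30.4, 30.6 and 29.4 FPKM in Ls-4mm. Its fold change was small but larger than the replicate spread (log2 −0.35, SE 0.047, edgeR adjusted p = 3.46e-06). BGIOSGA026572 (chromosome 8, coding length 1929 bases) was at 3.68, 3.72 and 4.52 FPKM in Ls-6mm, against 6.84, 5.56 and 8.44 FPKM in Ls-4mm, a log2 fold change of −0.77 (SE 0.14, edgeR adjusted p = 1.07e-04). The 4 detected HORMA genes therefore did not share a direction.

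**Figure D2:**
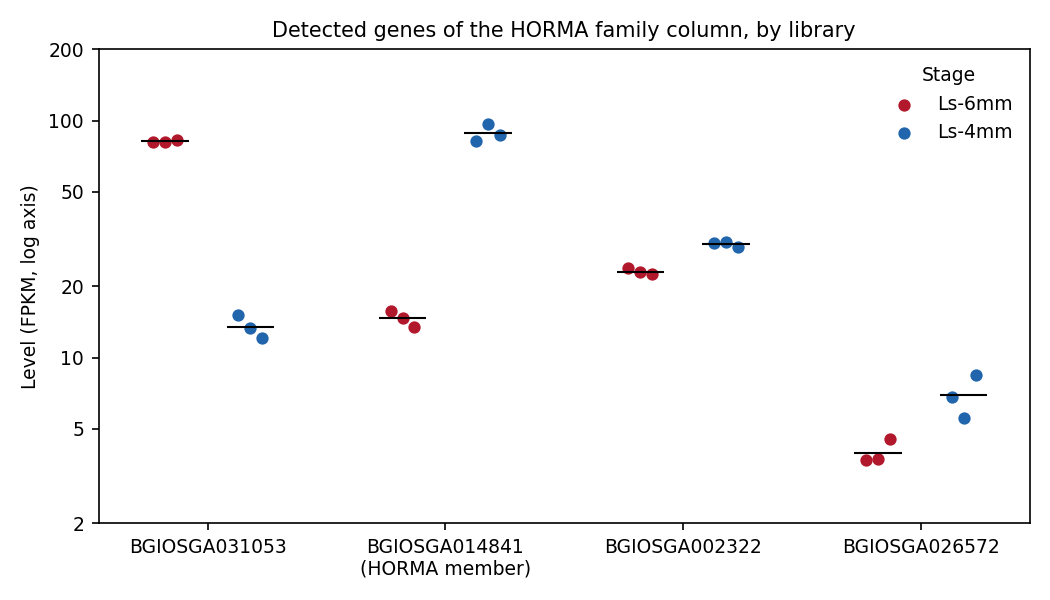
FPKM (log axis) of the 4 detected genes that the table places in the HORMA family, by library, with Ls-6mm in red and Ls-4mm in blue and a bar at each mean of 3 libraries. BGIOSGA031053 is at 80.9 to 82.8 FPKM in Ls-6mm and 12.1 to 15.1 FPKM in Ls-4mm, and BGIOSGA014841 is at 13.5 to 15.7 FPKM in Ls-6mm and 81.9 to 96.3 FPKM in Ls-4mm. The other 3 genes were chosen after their values were seen.

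The remaining genes of the pathway were taken from 4 lists of descriptions, for break formation, strand exchange, crossover, and the chromosome axis with its cohesion. Without the members they matched 36 genes, of which 26 were tested, 5 were higher and 19 lower in Ls-6mm, and 2 were not called (median log2 fold change −1.02, against 0.04 for all tested genes). Over all tested genes 42.0% were called higher and 38.6% lower, so a call was the usual outcome for the genes of each list. Many genes of the 4 lists also serve DNA replication and repair outside meiosis. The fall of the replication list in the same libraries stands beside them, and its part was not tested.

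Beside SPO11-1, the break list held 1 gene, NBS1 (BGIOSGA033164), which belongs to the complex that trims broken ends. It was at 4.63, 5.22 and 5.84 FPKM in Ls-6mm, against 13.0, 14.6 and 13.9 FPKM in Ls-4mm (log2 fold change −1.36, SE 0.099, edgeR adjusted p = 1.23e-09). It fell where SPO11-1 passed no threshold, and the difference between the 2 genes was not tested.

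The strand exchange list did not hold the MND1 homolog itself. It matched 17 genes, of which 12 were tested, 3 were higher, 8 lower and 1 not called (median −0.91). Among them were 3 genes described as parts of replication protein A, which coats single-stranded DNA in replication and in recombination, and each was lower. BGIOSGA005317 averaged 14.99 ± 0.377 CPM in Ls-6mm and 63.7 ± 1.60 CPM in Ls-4mm (log2 fold change −2.08), the largest fall on the list. BGIOSGA005984 and BGIOSGA001979 had log2 fold changes of −1.14 and −0.71.

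The TBPIP family gene BGIOSGA009945 was set beside the MND1 homolog because the HOP2 partner of MND1 carries that domain in yeast and mammals. The table does not name it HOP2, and it was picked out after its values were seen. Its level was 6.86, 8.84 and 8.78 FPKM in Ls-6mm, against 38.0, 32.7 and 35.7 FPKM in Ls-4mm. It was lower in Ls-6mm (log2 fold change −2.07, SE 0.11, edgeR adjusted p = 1.42e-11) where the MND1 homolog differed by less than its spread. The ratio of BGIOSGA009945 to the MND1 homolog was 0.279, 0.340 and 0.358 in Ls-6mm, against 1.42, 1.18 and 1.63 in Ls-4mm.

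**Figure D3:**
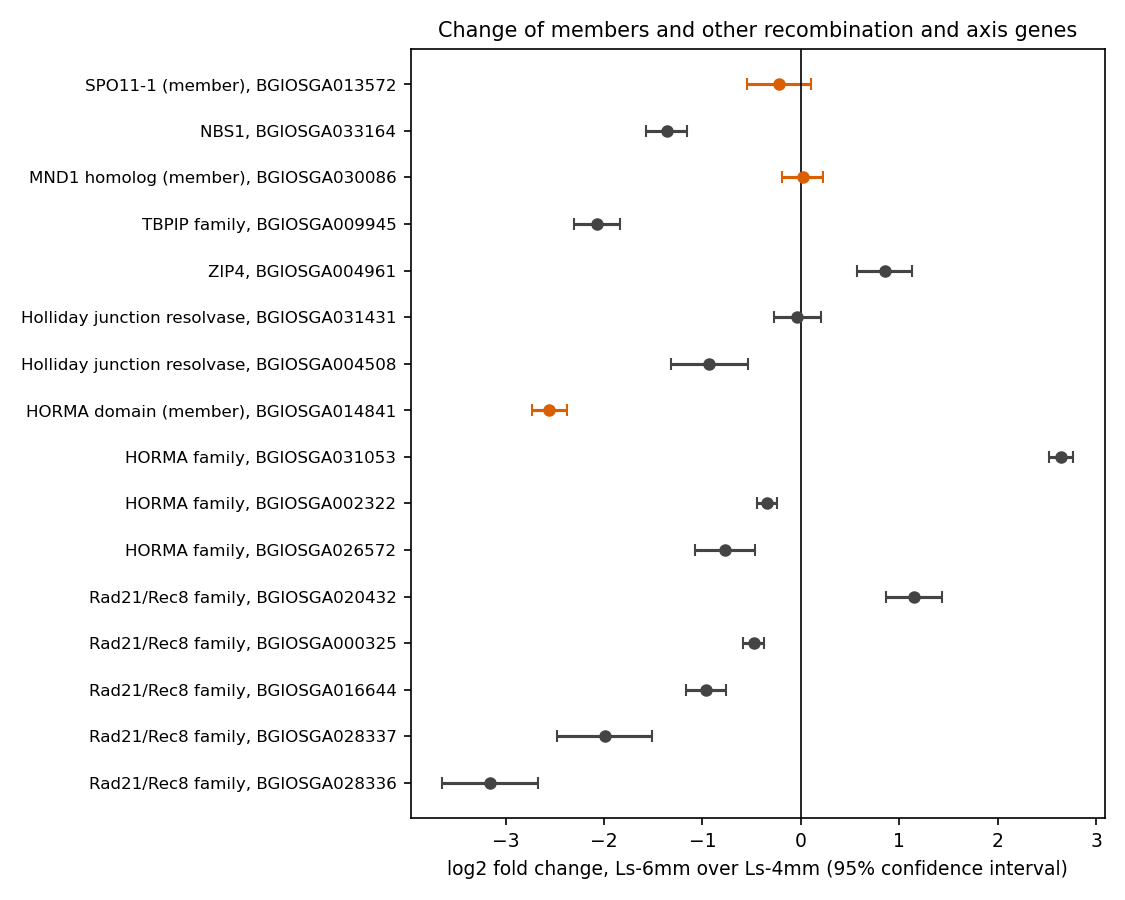
Log2 fold change of Ls-6mm over Ls-4mm with its 95% confidence interval from the edgeR fit (3 libraries per stage), for the 3 tested members (orange) and for other recombination and axis genes (grey), most of which were chosen after their values were seen. BGIOSGA031053 (2.64) lies farthest to the right, the HORMA member (−2.56) and BGIOSGA028336 (−3.16) lie to the left, and the intervals of SPO11-1 and the MND1 homolog include 0. BGIOSGA028336 passed the filter on low counts only through Ls-4mm, which fixed its direction.

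The axis and cohesion list matched 12 genes besides the HORMA member, of which 10 were tested, 2 were higher and 8 lower (median −1.48). Cohesin and condensin subunits of the SMC type hold and fold chromosomes in every dividing cell, and the SMC gene BGIOSGA035747 averaged 121 CPM in Ls-6mm and 263 CPM in Ls-4mm (log2 fold change −1.12). The largest rise was that of BGIOSGA007177, a gene with an SMC N-terminal domain (log2 fold change 1.29, SE 0.27, edgeR adjusted p = 3.25e-04). It was at 3.58, 5.34 and 3.42 FPKM in Ls-6mm, against 1.35, 2.27 and 1.56 FPKM in Ls-4mm. On chromosome 2 it lies near BGIOSGA007178 and BGIOSGA007179, models with SMC domains that were lower at −1.845 and −0.659. BGIOSGA007178 and BGIOSGA007179 averaged 24.7 and 73.1 FPKM in Ls-6mm, against 4.11 FPKM for BGIOSGA007177. Whether these neighbouring models are parts of 1 gene was not tested. If they are, the list counts it more than once. The other model that rose, BGIOSGA007176 (1.141), lies on the same chromosome. BGIOSGA007178 and BGIOSGA007176 were named after their values were seen.

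Kleisins of the Rad21 and Rec8 type close the cohesin ring, Rec8 in meiosis and Rad21 mainly in other divisions. The family column gave 5 such genes, of which 1 was higher and 4 were lower, and it does not separate the types. Of these, BGIOSGA020432, BGIOSGA016644 and BGIOSGA028337 were singled out after their values were seen. The most abundant, BGIOSGA000325, described as cohesin-like, was at 32.7, 36.2 and 36.5 FPKM in Ls-6mm, against 53.8, 47.8 and 49.7 FPKM in Ls-4mm (log2 −0.48, SE 0.05, edgeR adjusted p = 1.19e-07). The one that rose, BGIOSGA020432, was at 5.52, 6.03 and 5.48 FPKM in Ls-6mm, against 3.20, 2.37 and 2.38 FPKM in Ls-4mm (log2 1.15, SE 0.14, edgeR adjusted p = 6.36e-07). BGIOSGA016644 was lower at −0.96.

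The largest fall of the axis list was that of BGIOSGA028336 on chromosome 8. It lies 231 bases from BGIOSGA028337 on the same strand, and the 2 models hold the N terminus and the conserved region of a Rad21/Rec8 protein. BGIOSGA028336 averaged 0.600 ± 0.113 CPM in Ls-6mm and 5.40 ± 0.453 CPM in Ls-4mm (log2 −3.16, SE 0.23, edgeR adjusted p = 1.08e-09). It was read 12, 12 and 8 times in Ls-6mm and 75, 98 and 96 times in Ls-4mm. It thus passed the filter on low counts only through Ls-4mm. Its direction was thereby fixed, and its call is no test of a fall. BGIOSGA028337 averaged 1.52 ± 0.657 CPM in Ls-6mm and 6.25 ± 0.517 CPM in Ls-4mm (log2 −1.99, SE 0.23, edgeR adjusted p = 4.37e-07). They may be parts of 1 gene, in which case the list counts it double.

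The crossover list matched 6 genes, of which 3 were tested, 0 were higher, 2 lower and 1 not called (median −0.61). RECQ helicase L2 (BGIOSGA037911), which unwinds recombination intermediates, had a log2 fold change of −0.61. Of the 2 genes described as Holliday junction resolvases, BGIOSGA004508 was lower at −0.93 and BGIOSGA031431 was not called at −0.04 (edgeR adjusted p = 0.759). The gene described as the TPR repeat protein ZIP4 (BGIOSGA004961), which in rice promotes crossovers and the pairing of homologous chromosomes, stood outside the lists and the rule and was named after its values were seen. It was at 3.86, 3.09 and 3.58 FPKM in Ls-6mm, against 2.19, 1.86 and 1.95 FPKM in Ls-4mm (log2 fold change 0.85, SE 0.13, edgeR adjusted p = 1.34e-05).

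**Figure D4:**
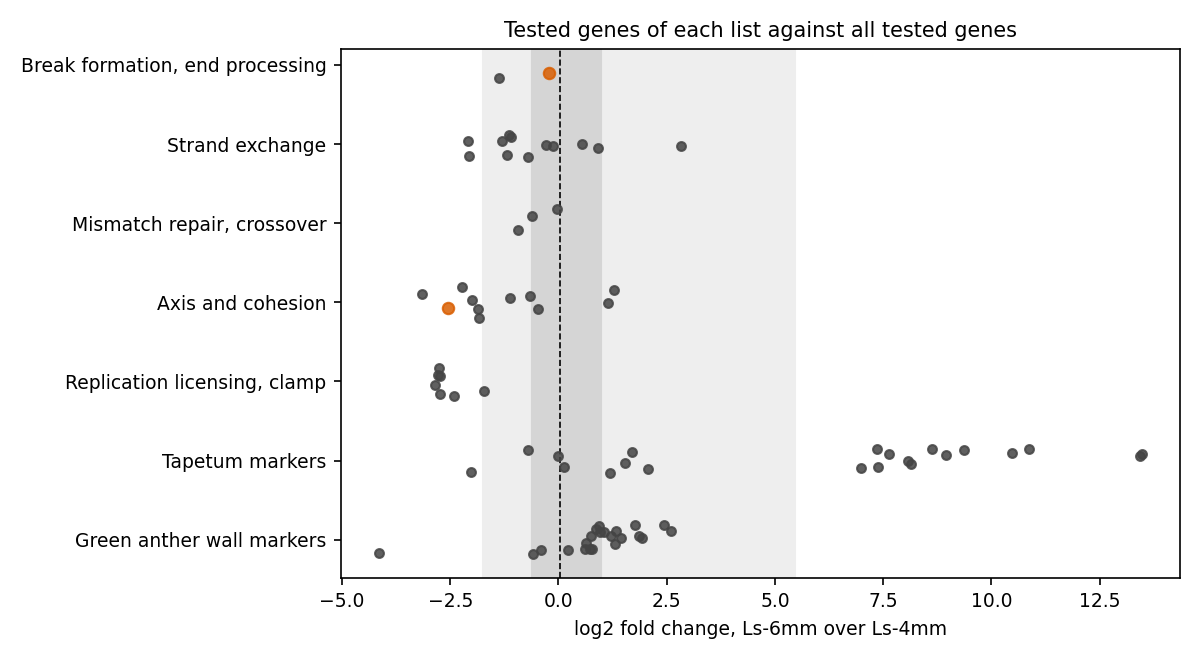
Log2 fold change of Ls-6mm over Ls-4mm for each tested gene of the lists (grey) and for the members on them (orange), with vertical jitter only for display. The light and dark bands hold the 5th to 95th and the 25th to 75th percentiles of all tested genes (−1.74 to 5.46, and −0.62 to 0.98) and the dashed line is their median (0.04). Replication genes lie at the left and many tapetum markers far to the right, and the 9 tapetum markers that were at 0 reads in one stage have positions that depend on the fit.

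The genes whose levels over the 6 libraries were nearest to those of each abundant member were found among 9752 described genes. The root mean square distance of log2(FPKM + 1) was used, without centring, so it measures nearness in level as well as in change. Nearest to the HORMA domain gene were a cytochrome c gene (BGIOSGA004936, distance 0.130), cyclin-B2-1 (CYCB2-1, BGIOSGA014544, distance 0.155), which drives entry into cell division, and a MADS-box gene (BGIOSGA009797, distance 0.177). Their log2 fold changes were −2.67, −2.46 and −2.45. Nearest to the MND1 homolog were a gene with an alpha amylase domain (BGIOSGA040526, distance 0.062), a presenilin enhancer-2 subunit (BGIOSGA005221, distance 0.076) and a ubiquitin-conjugating enzyme (BGIOSGA021171, distance 0.083), none of which was called.

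No other model of the table overlapped a member, which matters because it is not stated if reads were counted by strand. The genes on either side of the HORMA domain gene, RML1 (BGIOSGA016635) at 1158 bases and a glyceraldehyde-3-phosphate dehydrogenase (BGIOSGA016636) at 2557 bases, were also lower in Ls-6mm, with log2 fold changes of −0.61 and −1.16. Beside SPO11-1, the phytochrome C gene (BGIOSGA013571) ends 533 bases upstream on the same strand and was lower at −0.82, and BGIOSGA009800 at 1342 bases downstream was higher at 1.10. Both flanks of SPO11-1 thus passed the threshold, in opposite directions. Over all tested genes 42.0% were called higher and 38.6% lower, so a call of a neighbouring gene was the usual outcome.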

How the data were processed

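RNA of anthers (pollen in the wording of the study's RNA methods) was extracted with TRIzol, made into poly(A)-selected paired-end libraries and sequenced on an Illumina HiSeq instrument. Per the labels' processing notes and the study's methods, reads were aligned with HISAT2 2.0.5 and counted with featureCounts 1.5.0-p3, and the notes also name DESeq2 1.16.1 and edgeR 3.18.1. The table the authors deposited holds raw counts per gene model and the authors' FPKM, which are counts divided by the listed gene length and by a scaled library size. For protein-coding models the listed length is a multiple of 3 in 100% of cases, so it is a coding length. The gene identifiers carry the prefix of Oryza sativa subsp. indica, whereas the study's methods point to an Ensembl genome of Oryza longistaminata. The build behind the positions was not settled, and positions are printed as the table lists them. Further columns hold the authors' own comparisons, which were not used, and 36 columns of per-sample values match no label and were not used.

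Samples were grouped by spikelet length. Counts were tested with edgeR 4.0.16 in R 4.3.3 (filterByExpr with a minimum count of 10 and a total of 15, TMM scaling, quasi-likelihood test, stage as the only term), with Benjamini-Hochberg adjustment over all 23691 tested genes and a call at adjusted p under 0.05. The biological coefficient of variation was 4.73%. All 3 detected members passed the filter with 10 or more reads in every library. Intervals are at 95% and, like the limit of 3 reads for a count of 0, cover no bias of library preparation. Alternatives were DESeq2 1.42.0, RLE and unscaled library sizes, other count filters, a stricter threshold, a replicate block, limma 3.58.1 on log2(FPKM + 1) and log2(FPKM + 0.1), and each library left out. The code was tested on simulated data.

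The members and the 7 gene lists were chosen with earlier results of these data known. The text names all members, the 3 tested genes of highest mean CPM and the largest called rise and fall of each list where they bear on the members, and the 3 genes nearest in level to each member of at least 10 CPM in one stage. Genes outside this rule are said to be chosen after their values were seen. Some genes of the strand exchange list are counted in its totals and are not reported here by name.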

Additional observations from a re-analysis of the deposited data

How the results depend on the processing

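Over the 15 alternatives the HORMA domain gene kept its direction and its call and the MND1 homolog was never called. Library size as the only scaling gave 2 members lower in place of 1, SPO11-1 being the second, and turned the tapetum marker BGIOSGA029184 to −0.016 (edgeR adjusted p = 0.76), not called, against 0.12 in the main analysis (edgeR adjusted p = 0.035). It also gave 8951 genes higher and 10431 lower. When calls needed an FDR no higher than 0.001 and a change of 2-fold or more, 5591 of all genes were higher and 3145 lower, and 2 genes of the 4 pathway lists were higher and 12 lower. With at least 10 counts in every library, 3 genes of these lists were higher. With the table's family column added to the lists, an alternative chosen after seeing the data, 7 were higher and 25 lower of 34 tested. With each library left out, the members called stayed at 0 higher and 1 lower, the pathway lists gave 5 higher and 17 to 20 lower, all genes gave 9760 to 10148 higher and 8935 to 9114 lower, and the summed level of the members was 30.97 to 32.81 CPM in Ls-6mm and 75.28 to 81.11 CPM in Ls-4mm. Of the fold changes of single genes over these settings, 620 kept their call, 18 lost it with the same sign, 1 gained it and 1, that of BGIOSGA029184, lost it with a change of sign. The single genes that lost their call under the stricter threshold came from the same fit and fell short of 2-fold. The cause of the other shifts was not tested.

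Libraries with the same replicate number did not deviate together (correlations of −0.05, −0.03 and −0.01 for the 3 numbers, and 0 of 3 Ls-6mm libraries correlated best with their own number), so the numbers were not taken as pairs. With a replicate block 9833 genes were higher and 8991 lower, and the calls of the members did not change. Depth limits SPO11-1 most, at 73 to 126 reads per library.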
